A study of Mus musculus with 44 samples.

Results

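Myelin is the stack of membrane that oligodendrocytes wrap around axons in the central nervous system, and it lets action potentials jump between the nodes of Ranvier. Its membrane is rich in lipid and holds a small set of abundant proteins, some of which compact the layers while others face the axon or seal the edges of the sheath. The transcription factors SOX10 and MYRF act together on many myelin genes, and myelin is made and renewed by oligodendrocytes into adult life. Described here are 9 genes of this set, chosen by name: Mbp, Mog, Mobp, Mag, Cnp, Opalin, Mal, Cldn11 and Ermn. All 9 were found by symbol among the 54446 gene identifiers of the count table, and all 9 passed the filter on low counts that left 22079 genes for testing in the brain.

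Whole brains of male C57BL/6 mice were sequenced in 4 groups. They were 8 mice of 26 months on a cyclic ketogenic diet (KD), 8 of 26 months on a control diet (CD), 7 of 12 months on KD and 5 of 12 months on CD. The cyclic KD alternated with the CD by the week from the age of 12 months, and the 26-month tissue was taken in a week on CD. The 12-month KD mice had eaten KD for one week. By the study's methods all mice ate standard chow until their experimental diets began at 12 months. The 12-month CD mice had therefore eaten CD only briefly, and the 26-month CD mice since that age. Age and time on CD cannot be told apart in the aging comparison. Neither the labels nor the study's methods name a transgene, and the labels give no cage, day or batch. Each library is labelled as a separate sample, and p-values measure the spread between these samples.

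The 28 brain libraries held 7447742 to 12744415 counts each, with a median of 10810699. The 9 genes took 0.271% to 0.421% of the counts in 26-month KD brains, 0.322% to 0.477% in 26-month CD brains, 0.216% to 0.377% in 12-month KD brains and 0.204% to 0.321% in 12-month CD brains. In the 16 livers of the same table they took 0.0026% to 0.0070%, and Mobp and Opalin had no count in 10 of the 16. The predicted gene Gm10800 had a median share of 0.258% in 26-month KD brains and 0.203% in 26-month CD brains, against 0.00102% in 12-month KD brains and 0.00104% in 12-month CD brains, so that age and this signal cannot be told apart in the aging comparison.

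The libraries also differed in their levels of brain region markers, although the study describes whole brains. Whether they held different parts of the brain was not tested. The summed level of 10 cerebellum markers was 838 to 4024 CPM (counts scaled to the library's size) in 15 libraries and 104 to 287 CPM in the other 13, with no library between. Each group held both kinds: 4 high and 4 low among 26-month KD brains, 4 and 4 among 26-month CD brains, 4 and 3 among 12-month KD brains, and 3 and 2 among 12-month CD brains. The hindbrain list held 20 markers, of which 16 passed the filter and were tested. Its summed level, over all 20 here and below, ranged from 1.46 to 373 CPM. These values are set beside the results they move with.

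Promoter sequences of the members are shown first, because SOX10 and MYRF bind short motifs near many myelin genes and because the members were found to vary together across the brains. RefSeq promoters of the mouse build GRCm38.p6, running from 250 bases before to 50 bases after the transcription start, were matched for 8 members; Mbp is named only. Searched on both strands were ACAAAG or ACAATG, letters bound by SOX proteins such as SOX10, CTGGCAC or CTGGTAC, the letters of the MYRF motif, and CAGCTG or CATCTG, E-box letters of the lineage factor OLIG2, and TATAAA was searched on the gene's strand. The MYRF letters were found in 4 of the 8 members, Mog, Mag, Cnp and Opalin, and in 7.09% of all 32817 mouse promoters of this length. The SOX letters were found in 5 of the 8, Mobp, Mag, Cnp, Opalin and Ermn, and in 28.6% of all promoters. The E-box letters were found in 1 of the 8, Opalin, and in 30.6% of all promoters, and TATAAA in 0 of the 8 and in 8.32% of all. Members are counted here by gene, with a match in any window, while the shares are by promoter window. By window, 5 of the members' 10 held the MYRF letters and 6 the SOX letters.
The 5 promoters below are those with a MYRF match or with the most SOX matches, on the strand of the gene, with the matching SOX and MYRF letters in capitals. CTTTGT is ACAAAG read on the other strand, GTACCAG is CTGGTAC and GTGCCAG is CTGGCAC. For Mag, 1 of 3 windows is shown.
Mag, chr7:30914814-30915113, minus strand: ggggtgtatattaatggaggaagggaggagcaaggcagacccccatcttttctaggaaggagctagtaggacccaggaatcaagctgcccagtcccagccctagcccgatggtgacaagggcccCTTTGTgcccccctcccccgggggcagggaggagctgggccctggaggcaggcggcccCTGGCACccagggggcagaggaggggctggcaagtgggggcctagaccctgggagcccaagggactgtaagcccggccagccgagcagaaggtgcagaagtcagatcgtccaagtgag
Cnp, chr11:100574689-100574988, plus strand: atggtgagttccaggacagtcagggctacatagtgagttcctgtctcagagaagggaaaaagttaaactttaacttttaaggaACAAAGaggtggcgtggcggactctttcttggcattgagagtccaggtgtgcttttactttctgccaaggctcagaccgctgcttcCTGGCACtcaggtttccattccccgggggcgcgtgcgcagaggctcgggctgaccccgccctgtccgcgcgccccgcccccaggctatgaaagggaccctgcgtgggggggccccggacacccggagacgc
Opalin, chr19:41077064-41077363, minus strand: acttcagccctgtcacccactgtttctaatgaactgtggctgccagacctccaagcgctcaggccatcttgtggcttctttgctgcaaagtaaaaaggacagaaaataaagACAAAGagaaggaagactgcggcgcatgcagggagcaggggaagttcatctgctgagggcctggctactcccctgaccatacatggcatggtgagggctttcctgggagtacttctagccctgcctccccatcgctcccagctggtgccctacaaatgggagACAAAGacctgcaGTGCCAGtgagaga
Mog, chr17:37023349-37023648, minus strand: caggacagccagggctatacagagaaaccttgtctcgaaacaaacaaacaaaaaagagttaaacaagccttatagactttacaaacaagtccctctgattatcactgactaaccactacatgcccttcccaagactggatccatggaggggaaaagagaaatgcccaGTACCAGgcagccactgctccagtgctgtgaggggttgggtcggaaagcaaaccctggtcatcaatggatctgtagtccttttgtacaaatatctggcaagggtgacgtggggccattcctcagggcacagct
Mobp, chr9:120149492-120149791, plus strand: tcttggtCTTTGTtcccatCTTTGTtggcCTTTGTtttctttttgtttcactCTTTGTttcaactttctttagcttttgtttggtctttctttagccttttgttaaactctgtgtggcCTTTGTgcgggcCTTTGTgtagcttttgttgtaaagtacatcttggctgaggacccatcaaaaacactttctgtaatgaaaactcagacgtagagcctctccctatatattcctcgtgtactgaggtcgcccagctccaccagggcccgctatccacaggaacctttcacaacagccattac
In Mag, Cnp and Opalin both kinds of letters lay in one window. Mobp carried ACAAAG 6 times between bases -243 and -115, counted with the start at 0, and held no MYRF letters. The windows of Mal and Cldn11 held neither kind. Letters in a promoter do not show that a factor was bound there, and binding was not measured.

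The members differed in level by a ratio of 34.6 between highest and lowest, in CPM per kilobase of exon so that genes of different length can be compared. The length used is that of all annotated exons together, not of the transcripts expressed. This ratio and the close ranks depend on it. Mbp (ENSMUSG00000041607) lies on chromosome 18 from 82475146 to 82585637 of GRCm38 and stood first at 206 ± 37.5 CPM per kb (SD, n = 28 brains). It encodes myelin basic protein, which holds the inner faces of the membrane together. Mobp (ENSMUSG00000032517, chromosome 9, 120149707 to 120181484), another basic protein of compact myelin, followed at 105 ± 24.5 CPM per kb and was below Mbp in all 28 libraries.
Cldn11 (ENSMUSG00000037625, chromosome 3, 31149920 to 31164324), the claudin that seals the myelin layers with tight junctions, stood at 70.2 ± 16.5 CPM per kb. Cnp (ENSMUSG00000006782, chromosome 11, 100574904 to 100591729), an enzyme that keeps cytoplasmic channels in the sheath open, stood at 69.2 ± 12.0 CPM per kb. Cldn11 was above Cnp in 16 of the 28 libraries, so this pair did not differ beyond its spread. Mal (ENSMUSG00000027375, chromosome 2, 127633226 to 127656695), a lipid raft protein of myelin transport, came next at 52.1 ± 11.8 CPM per kb and was below Cnp in 27 of 28.
Mag (ENSMUSG00000036634, chromosome 7, 30899176 to 30914873), the adhesion protein on the layer next to the axon, stood at 35.6 ± 7.77 CPM per kb. Mog (ENSMUSG00000076439, chromosome 17, 37010743 to 37023398), an immunoglobulin-like protein on the outermost layer, stood at 30.2 ± 6.74 CPM per kb. Ermn (ENSMUSG00000026830, chromosome 2, 58045113 to 58052864), a cytoskeletal protein of late-stage oligodendrocytes, stood at 28.8 ± 6.63 CPM per kb. Mog was above Ermn in 19 of 28 libraries, so the order of this pair was not steady, while Mag was above Mog in all 28. Opalin (ENSMUSG00000050121, chromosome 19, 41061710 to 41077113), a glycoprotein of mature oligodendrocytes, was last at 5.93 ± 1.44 CPM per kb, below Ermn in all 28.
Without stated strand handling, reads of Cnp and of Dnajc7, a gene on the opposite strand whose exons overlap it (median 870.5 counts), cannot be told apart where they overlap. The same holds for Ermn and Galnt5, which had a median of 42.5 counts, and for Mobp and the predicted gene Gm38642 on its own strand.

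**Figure D1:**
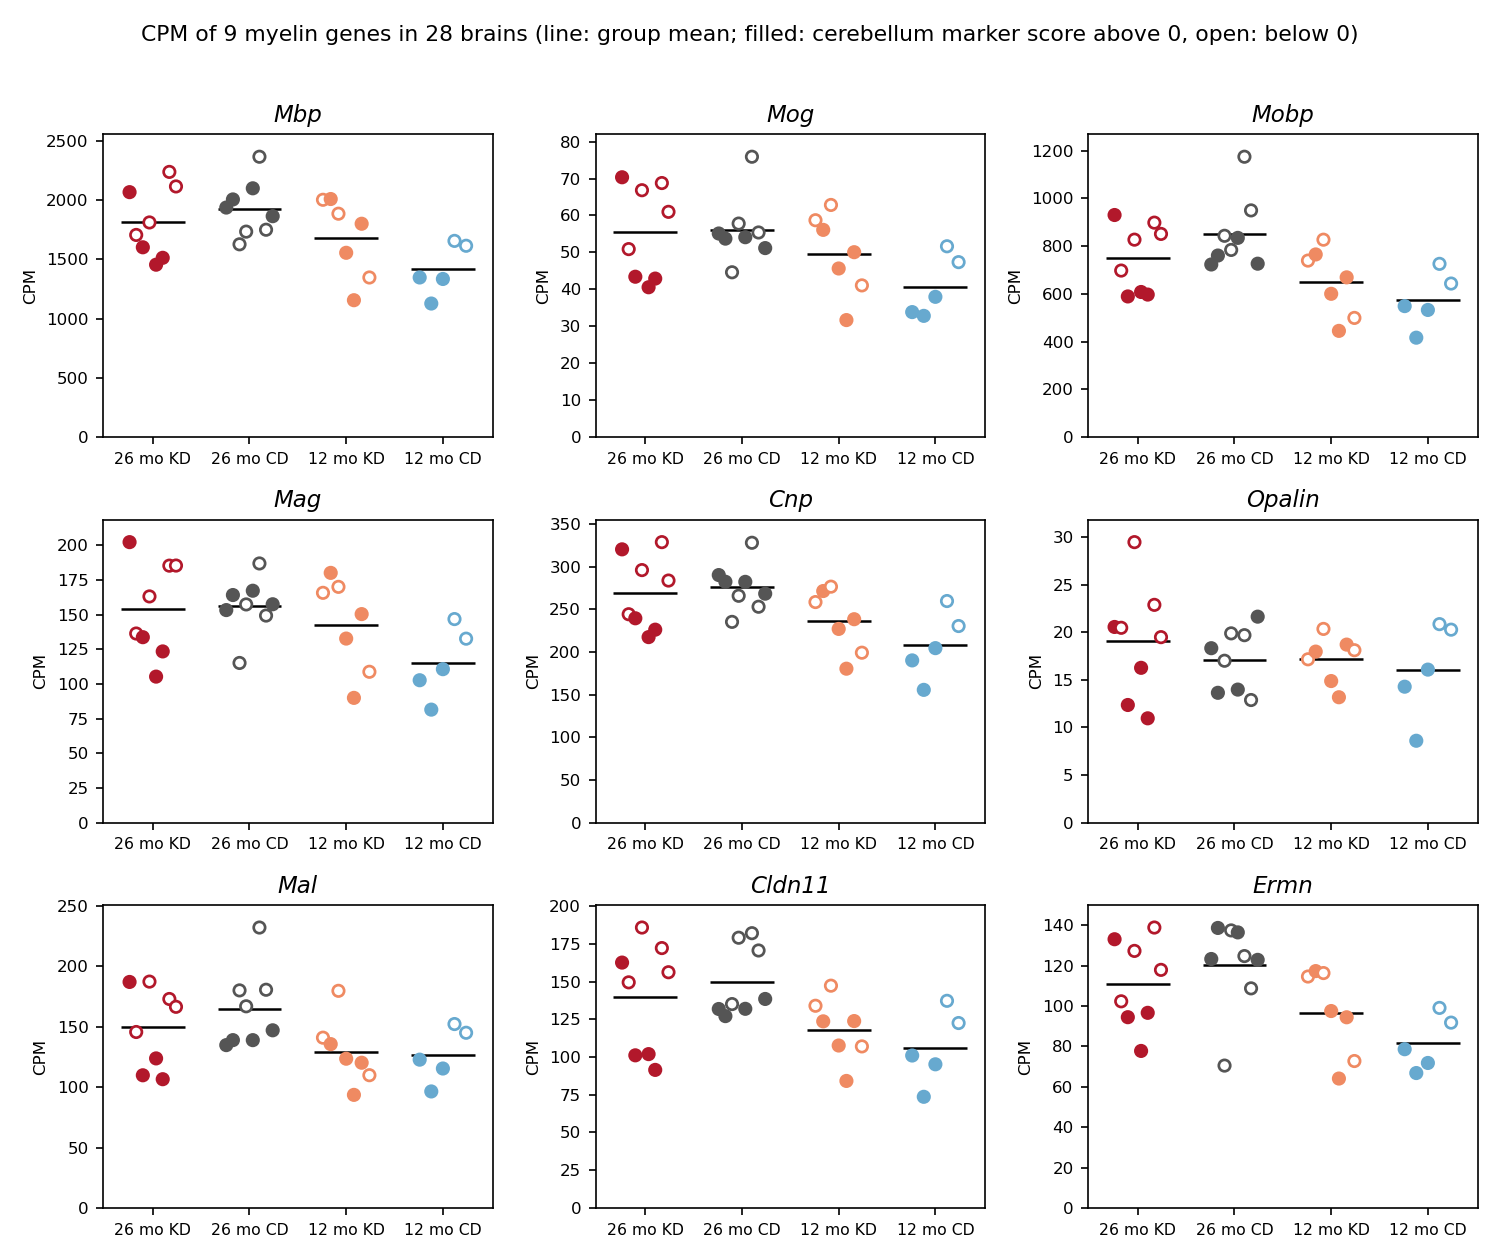
CPM of the 9 myelin genes (vertical axes, starting at 0) in each of 28 brains by group, with a line at each group mean; filled points are libraries with a cerebellum marker score above 0 and open points those below 0. Mbp reached 2367 CPM in a 26-month CD brain and was lowest, at 1127 CPM, in a 12-month CD brain.

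The first comparison asks how the genes differ with age on the control diet, 26-month CD against 12-month CD brains. These groups also differ in their time on the CD. All 9 members had a log2 fold change above 0, against 49.5% of all genes, with a median of 0.44. Levels of the members ran together within groups (median Pearson r 0.84 for 36 pairs, described below). Counts of members in one direction or under a threshold, here and below, are therefore not counts of separate results. None of the 9 passed the test at an adjusted p under 0.05 by edgeR, the quasi-likelihood test used throughout. In bulk tissue, a change in the number of cells of a type and a change in RNA per cell cannot be told apart. Mbp was at 1627 to 2367 CPM in 26-month CD brains, with a median of 1901, against 1127, 1335, 1347, 1615 and 1656 CPM in 12-month CD brains. Each of the 8 older brains was above the median of the younger ones, yet 1 older brain, replicate 3, lay below the highest younger one. Its log2 fold change was 0.44 (SE 0.13), with an adjusted p of 0.102 from edgeR.
Mobp had the smallest p of the set. It was at 723 to 1175 CPM in 26-month CD brains, with a median of 810, against 417, 533, 549, 643.5 and 726 CPM in 12-month CD brains. The groups overlapped at their edges, where 1 younger brain exceeded the lowest older one. The log2 fold change was 0.57 (SE 0.16), a fold of 1.48, and the adjusted p was 0.0755 from edgeR.
Ermn was at 70.5 to 139 CPM in 26-month CD brains, with a median of 124, against 66.8, 71.8, 78.6, 91.7 and 99.0 CPM in 12-month CD brains. All but 1 of the 8 older brains lay above every younger one, and the exception, replicate 3, stood among the younger ones. Its log2 fold change was 0.56 (SE 0.16, edgeR adjusted p = 0.0953).
Among the genes for membrane and junction proteins, Cldn11 was at 127 to 182 CPM in 26-month CD brains, with a median of 137, against 73.6, 95.2, 101, 122 and 137 CPM in 12-month CD brains. Its log2 fold change was 0.50 (SE 0.17, adjusted p = 0.178 from edgeR). Opalin had the smallest log2 fold change of the set, with 12.9 to 21.6 CPM and a median of 17.7 in 26-month CD brains against 8.59, 14.3, 16.1, 20.3 and 20.8 CPM in 12-month CD brains. The groups overlapped almost fully, and the value was 0.09 (95% interval -0.32 to 0.50).
Mag and Mog, of the innermost and outermost layers, had log2 fold changes near the median of the set. Mag was at 115 to 187 CPM in 26-month CD brains, with a median of 157, against 81.5, 103, 111, 133 and 147 CPM in 12-month CD brains (log2 fold change 0.44, SE 0.17). Mog was at 44.6 to 75.9 CPM in 26-month CD brains, with a median of 54.6, against 32.8, 33.8, 38.0, 47.4 and 51.7 CPM in 12-month CD brains (0.46, SE 0.16). For Mag 1 of the 8 older brains, replicate 3, lay below the highest younger one, and for Mog 2 did.
Cnp was at 235 to 328 CPM in 26-month CD brains, with a median of 275, against 156, 190, 204, 230 and 260 CPM in 12-month CD brains (log2 fold change 0.41, SE 0.12). Mal was at 135 to 232 CPM in 26-month CD brains, with a median of 157, against 96.4, 115, 123, 145 and 152 CPM in 12-month CD brains (0.38, SE 0.16). The overlap was wider for Mal and Cldn11, where 4 of the 8 older brains lay below the highest younger one. The adjusted p-values of Mag, Mog, Cnp and Mal ran from 0.104 to 0.316 by edgeR.
Of the 9 members, 0 were called, against 278 of all 22079 genes tested, 1.26% (1% higher and 0.258% lower). Before adjustment 8 of the 9 had a p under 0.05, all but Opalin and all higher, against 11.8% of all genes, 7.81% higher and 4.02% lower. With levels that run together, these 8 are not separate results. For no member did the 2 groups fail to overlap, against 0.924% of all genes that were apart and higher and 0.349% apart and lower. DESeq2 called 4 members higher, Mobp, Ermn, Mbp and Cnp, at adjusted p-values from 0.0227 to 0.0450, and limma with sample quality weights called Ermn alone (adjusted p = 0.0403). DESeq2 also called more of all genes, 393 higher against 221 by edgeR.
The call also turned on single libraries. Without 12-month CD replicate 13, which had the highest Mbp, Mobp and Ermn of its group, Mobp passed in edgeR (adjusted p = 0.0487), and without 26-month CD replicate 3 Ermn passed (adjusted p = 0.0289).

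**Figure D2:**
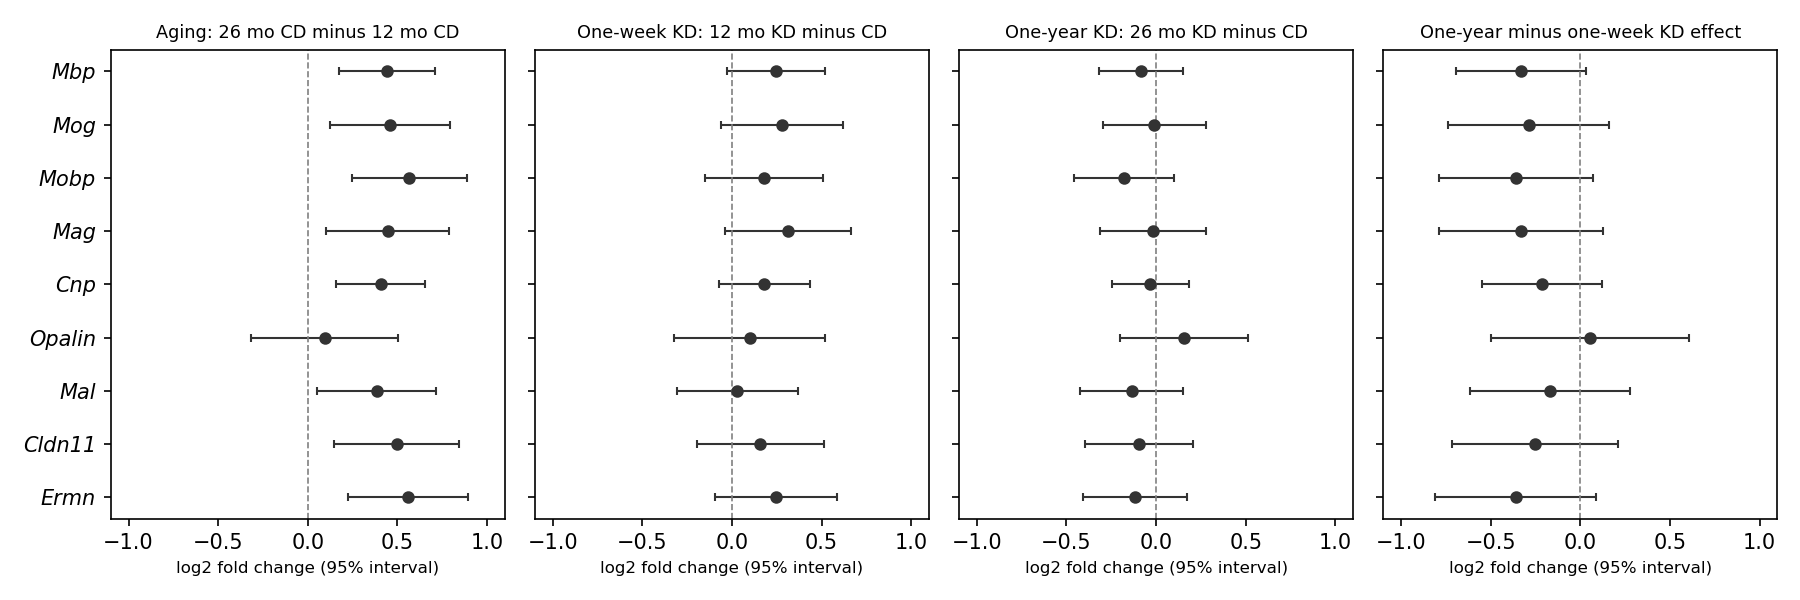
Log2 fold change of each member (point, horizontal axis) with its 95% interval (bar) in 4 comparisons, from the edgeR fit of 28 brains. In the aging panel the intervals of 8 members lie above 0 before adjustment and that of Opalin spans 0, while in the one-week and one-year panels the intervals of all 9 span 0.

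The aging comparison was also made within each kind of library. In the 7 CD libraries high in cerebellum markers, 4 old and 3 young, the mean level of the 9 members (geometric mean over the genes) was 171 to 176 CPM in 26-month CD brains against 97.5 to 126 CPM in 12-month CD brains. In the 6 low ones, 4 old and 2 young, it was 154 to 223 CPM in 26-month CD brains against 154 to 167 CPM in 12-month CD brains. The groups were apart in the first set and overlapped in the second. How many of all genes would be apart with so few libraries was not counted, so this contrast cannot be read as a result. Fitted within each set, a split chosen after seeing the data, the median log2 fold change of the members was 0.62 with 9 of 9 above 0 in the first and 0.21 with 8 of 9 above 0 in the second, and edgeR called 0 members in either (smallest adjusted p 0.0727 and 0.540). Few of all genes were called in these small fits, as listed in the last section, so 0 called says little about the members. Whether both sets differ in this was not tested. With scores of 4 brain regions as covariates the median was 0.27, and with the hindbrain score alone it was 0.38. Of the hindbrain markers themselves 14 of 16 had a log2 fold change above 0 with age (median 0.79), with summed levels of 4.06 to 233 CPM in 26-month CD brains against 1.46 to 116 CPM in 12-month CD brains, and 1 rose, Tph2 of serotonin neurons (edgeR adjusted p = 0.0486). That call was lost when any of 9 of the 13 libraries was left out (0.0578 to 0.139). All 10 striatum markers were above 0 too (median 0.62), with 0 called.

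The second comparison asks what one week of KD does at 12 months. It shares the 12-month CD brains with the aging comparison. All 9 members had a log2 fold change above 0, against 49.4% of all genes, with a median of 0.18. In edgeR 0 of them passed the test, against 1 of all 22079 genes (0.00453% higher and 0% lower). Mag had the largest value. It was at 90.0 to 180 CPM in 12-month KD brains, with a median of 150, against 81.5, 103, 111, 133 and 147 CPM in 12-month CD brains. Mag was above the CD median in 5 of 7 KD brains, and its log2 fold change was 0.31 (95% interval -0.04 to 0.66).
Mbp was at 1156 to 2010 CPM in 12-month KD brains, with a median of 1801, against the 1127 to 1656 CPM of the 12-month CD brains. Its log2 fold change was 0.25 (95% interval -0.03 to 0.52), and 4 of the 7 KD brains were above every CD brain while 3 lay within their range. Mog was at 31.7 to 62.8 CPM in 12-month KD brains, with a median of 50.1, against 32.8 to 51.7 CPM in 12-month CD brains, and its log2 fold change was 0.28 (95% interval -0.06 to 0.62).
Ermn was at 64.0 to 117 CPM in 12-month KD brains, with a median of 97.5, against 66.8 to 99.0 CPM in 12-month CD brains (log2 fold change 0.25). Mobp was at 445 to 827 CPM in 12-month KD brains, with a median of 669, against 417 to 726 CPM in 12-month CD brains (0.18). Replicate 11 was the lowest 12-month KD brain for all 9 members. The other log2 fold changes were 0.18 for Cnp, 0.16 for Cldn11, 0.10 for Opalin and 0.03 for Mal. At an unadjusted p under 0.05 stood 0 of the 9, against 2.65% of all genes (1.49% higher and 1.16% lower), and DESeq2 and limma also called 0.
Markers of hindbrain and cerebellum also had log2 fold changes above 0 in this comparison. Their summed levels overlapped between the groups, and edgeR called 0 of them. All 16 tested hindbrain markers had a log2 fold change above 0 with a median of 1.60. The summed level of the whole list was 4.23 to 373 CPM in 12-month KD brains against 1.46 to 116 CPM in 12-month CD brains. All 10 cerebellum markers were above 0 as well, with a median of 0.42 and summed levels of 150 to 2788 CPM in 12-month KD and 212 to 2392 CPM in 12-month CD brains. With the hindbrain score as a covariate the median of the members was 0.11. In the libraries low in cerebellum markers it was 0.01, with 5 of 9 above 0, against 0.32 in the high ones.

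The third comparison asks whether one year of cyclic KD shifts these genes at 26 months. It uses the same 26-month CD brains as the aging comparison. Of the 9 members, 8 had a log2 fold change below 0 and 1, Opalin, above it, with a median of -0.08, where 49% of all genes were above 0. In edgeR 0 passed the test, as did 0% of all genes. At an unadjusted p under 0.05 stood 0 members, against 4.52% of all genes (1.52% higher and 3% lower), and DESeq2 and limma called 0 members. Mobp had the largest difference, with 589.5 to 931 CPM and a median of 763 in 26-month KD brains, against 723 to 1175 CPM and a median of 810 in 26-month CD brains. The ranges overlapped widely and the log2 fold change was -0.18 (95% interval -0.46 to 0.10).
Mbp was at 1455 to 2238 CPM in 26-month KD brains, with a median of 1759, against 1627 to 2367 CPM in 26-month CD brains, a log2 fold change of -0.08 (95% interval -0.32 to 0.15). Opalin was at 10.9 to 29.5 CPM in 26-month KD brains, against 12.9 to 21.6 CPM in 26-month CD brains, a log2 fold change of 0.16 (95% interval -0.20 to 0.51). The SD of Opalin was 5.92 CPM in 26-month KD brains and 3.30 CPM in 26-month CD brains, and the KD brains held both its highest level of all 28 libraries and 2 of its 3 lowest.
Mal was at 107 to 187 CPM in 26-month KD brains, with a median of 156, against 135 to 232 CPM in 26-month CD brains (log2 fold change -0.14). Ermn was at 77.7 to 139 CPM in 26-month KD brains, with a median of 110, against 70.5 to 139 CPM in 26-month CD brains (-0.12). The other log2 fold changes were -0.09 for Cldn11, -0.03 for Cnp, -0.02 for Mag and -0.01 for Mog. The 95% intervals of the 9 reached no higher than 0.51 and no lower than -0.46.
The 26-month KD brains differed by their level of region markers. In the 4 high in cerebellum markers the geometric mean of the members was 131, 133, 137 and 208 CPM, and in the 4 low ones it was 165 to 210 CPM. Within the libraries high in cerebellum markers, 0 of 9 members were above 0 (median -0.17), and within the low ones 7 of 9 were (median 0.09), with 0 called by edgeR in either (smallest adjusted p 0.487 and 0.556). Of all genes, 0 were called in either set as well. Whether both sets differ was not tested. The median was also above 0 with the scores of 4 regions as covariates (7 of 9 above 0, median 0.06) and without the libraries in which Gm10800 took over 0.5% of the counts (5 of 9 above 0, median 0.03). In this comparison 0 of 16 hindbrain markers were above 0 (median -1.06), with summed levels of 4.80 to 174 CPM in 26-month KD brains against 4.06 to 233 CPM in 26-month CD brains, and 10 of 10 cerebellum markers were above 0 (median 0.53), at 104 to 4024 CPM in 26-month KD brains against 121 to 2940 CPM in 26-month CD brains.
The one-year and one-week diet effects differ in age and in the length and cycling of the KD, and the 26-month tissue was taken in a week on CD. These cannot be told apart. The difference between both diet effects, one-year minus one-week, was below 0 for 8 of the 9 members, with a median of -0.29, where 50.7% of all genes were above 0. In edgeR 0 were called, as were 0% of all genes, and DESeq2 and limma called 0 members. Its intervals all spanned 0, from -0.69 to 0.03 for Mbp and from -0.50 to 0.61 for Opalin. At an unadjusted p under 0.05 stood 0 members, against 4.52% of all genes (1.56% higher and 2.96% lower).

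The members varied together from brain to brain. Over the 28 brains the median Pearson r of their log2 CPM was 0.86 for the 36 pairs (0.47 to 0.96), and 0.84 for deviations from the group means. The same 28 libraries, with their scaling and levels of region markers, enter every pair, so these correlations are descriptions. Mog was closest to the mean of the other 8 (r = 0.97) and Opalin farthest (0.64). Mbp, Mag and Cnp formed the tightest trio, with within-group r of 0.94 to 0.96.
Within groups, r with the cerebellum score ran from -0.69 for Cldn11, -0.65 for Mal and -0.55 for Opalin through -0.47 for Mobp, -0.45 for Mog and -0.28 for Cnp to -0.24 for Mbp and Mag and -0.11 for Ermn. Mbp (0.47) and Ermn (0.41) were the members closest to the hindbrain score. Outside the pairs with Opalin, Mal and Ermn had the lowest within-group r, 0.53. Relative to the mean log2 CPM of the other 8, Opalin stood at -3.62 ± 0.29 in 26-month KD, -3.83 ± 0.30 in 26-month CD, -3.53 ± 0.20 in 12-month KD and -3.49 ± 0.26 in 12-month CD brains (log2 ratio, mean ± SD).

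**Figure D3:**
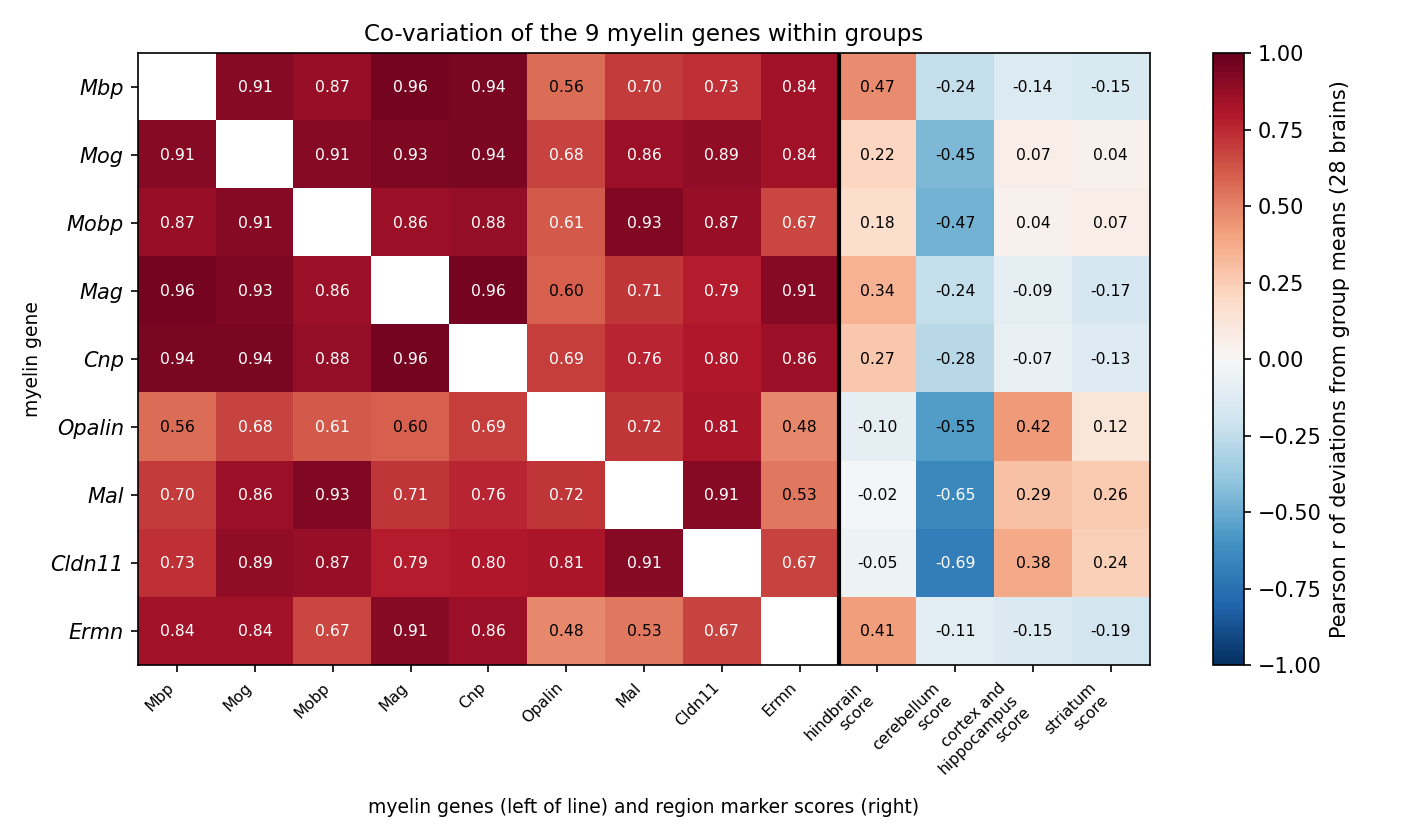
Pearson r between members (left of the line) and between each member and 4 region scores (right), over deviations of 28 brains from their group means, with each value printed in its square. All 36 pairs are positive, the weakest being Opalin with Ermn at 0.48, and the cerebellum column is below 0 for all 9 members.

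Of 13359 other genes ranked by their correlation with the mean of the members over 28 brains, Sox10 came first (r = 0.96). It encodes the transcription factor that keeps oligodendrocytes in their lineage, and stood at 64.8 ± 18 CPM in 26-month KD, 68.9 ± 7.8 in 26-month CD, 57.4 ± 10 in 12-month KD and 48.6 ± 12 in 12-month CD brains. Gpr37, an orphan receptor of oligodendrocytes, followed at 0.96, then Ndrg1 (0.96) and Tmcc3 (0.95). Tmem63a, Csrp1, Pde8a, Cd82, Il33 and Rassf2 complete the 10 highest, at 0.93 to 0.94. Il33 encodes an alarmin that oligodendrocytes also make. At the other end stood Adgrb3, a synaptic adhesion receptor (-0.85), Atrx, a chromatin remodeller (-0.84), and Scn2a, a sodium channel of axons (-0.82), with Hook1 and Mark3 at -0.81. On deviations from the group means Gpr37 (0.97), Ndrg1 (0.96), Sox10 (0.95), Tmcc3 (0.94) and Rassf2 (0.94) led, followed by Cd82, Pde8a, Myo1d, Bcas1os2 and Tmem63a at 0.93. The lowest were again Adgrb3 (-0.88), then Mamld1 (-0.86), Hist1h4k (-0.84), Scn2a (-0.83) and Msh3 (-0.83).

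Other genes of the lineage were read from lists. Of 37 further genes of myelin and mature oligodendrocytes, all tested, 36 had a log2 fold change above 0 with age (median 0.33) and 4 rose: Hapln2, Trf, Anln and Apod. Hapln2 links hyaluronan at the nodes and stood at 51.1 ± 14 CPM in 26-month CD brains and 25.6 ± 4.5 in 12-month CD brains (SD, n = 8 and 5), a log2 difference of 0.99 with SE 0.19 (edgeR adjusted p = 0.00535). Trf, which encodes the iron carrier transferrin, had 7.94 ± 1.0 CPM in 26-month CD and 4.13 ± 0.86 CPM in 12-month CD brains, a log2 difference of 0.94 with SE 0.18 (adjusted p = 0.00494).
Anln, a scaffold protein that stabilizes myelin, rose by 0.69 (SE 0.15, adjusted p = 0.0165) and Apod, a lipid carrier, by 0.82 (SE 0.18, adjusted p = 0.0195). Neither kept its call without 12-month CD replicate 4 or 7 (adjusted p from 0.0633 to 0.0730), Anln also lost it without replicate 1 (0.0579) and Apod without replicate 16 (0.0655). With the hindbrain score as a covariate both calls were lost (0.0872 and 0.0525), as was that of Apod with scores of 4 regions (0.117) and with the compared groups alone (0.142). In the libraries high in cerebellum markers only Anln kept its call, and in the low ones none of the 4 did. After one week of KD 34 of the 37 were above 0 (median 0.24) and after the cyclic diet 13 were (median -0.04), with 0 called in either by edgeR.
Klk6, a protease of oligodendrocytes, and Trf had the smallest p of this list in the one-week comparison, at log2 values of 1.11 (SE 0.34) and 0.53 (SE 0.18), both with an adjusted p of 1. Hapln2 at -0.47 (SE 0.16) and Apod at -0.43 (SE 0.16) did in the one-year comparison, both with an adjusted p of 0.989.
Of 12 transcription factors of the lineage, 11 were above 0 with age (median 0.35) and 0 were called. Nkx6-2 had the smallest p, with 12.8 ± 2.7 CPM in 26-month CD and 7.94 ± 1.9 CPM in 12-month CD brains (log2 fold change 0.68, SE 0.18, adjusted p = 0.0583), followed by Myrf at 0.60 (SE 0.18, adjusted p = 0.0993). The one below 0, named after its value was seen, was St18 at -0.02. Of 14 genes of precursors and newly formed oligodendrocytes, 8 were above 0 (median 0.12) and 1 fell: Bmp4, a growth factor of premyelinating cells, had 1.27 ± 0.46 CPM in 26-month CD and 2.65 ± 0.57 CPM in 12-month CD brains (log2 fold change -1.07, SE 0.22, adjusted p = 0.010). The call of Bmp4 was lost without 12-month CD replicate 1 (0.0632), with the compared groups alone (0.0696) and in both cerebellum sets (0.162 in the high and 0.454 in the low). Enpp6, a marker of newly formed oligodendrocytes, came next at 0.53 (SE 0.18, adjusted p = 0.151).
Of 9 tested genes reported in oligodendrocytes of the aged or injured brain, 4 rose with age: C4b of the complement system, by 1.82 (SE 0.27), the protease inhibitor gene Serpina3n, by 1.3 (SE 0.27), and the class I antigen presentation genes H2-K1, by 0.77 (SE 0.14), and B2m, by 0.64 (SE 0.10). Their adjusted p-values ran from 2.61e-04 to 0.010 in edgeR. Fitted in the libraries high in cerebellum markers alone, C4b (0.063), Serpina3n (0.199) and H2-K1 (0.0899) lost their calls, and in the low ones H2-K1 (0.280) and B2m (0.314) did. Astrocytes and microglia express some of these genes too. Microglia genes of white matter and damage were above 0 in 12 of 12, with 7 called: Itgax, Clec7a, Tyrobp, Cd68, Gpnmb, Lgals3 and Cst7. Cst7 lost its call without 12-month CD replicate 1, 7 or 13 (0.0567 to 0.0653), with the hindbrain score (0.0517), with the compared groups alone (0.0968) and in both cerebellum sets (0.122 in the high and 0.429 in the low). Cd68 lost its call in the high set (0.0874), and Itgax, Clec7a, Tyrobp, Gpnmb and Lgals3 lost theirs in the low set (0.0924 to 0.329). Itgax, an integrin of such microglia, was at 3.55 ± 1.7 CPM in 26-month CD and 0.390 ± 0.21 CPM in 12-month CD brains (log2 fold change 3.11, SE 0.35, adjusted p = 1e-05). Of 10 general microglia markers 3 rose, the complement genes C1qa, C1qb and C1qc, by 0.80 to 0.83, of which C1qa lost its call in the low cerebellum set (0.0506). Gfap, an intermediate filament of astrocytes, rose by 0.88 (adjusted p = 0.032) and was the one astrocyte marker called of 10, and Ly6c1 rose by 0.83 (0.0132) among 10 endothelial markers. The call of Gfap was lost without 12-month CD replicate 4, 7, 13 or 16 or 26-month CD replicate 5 or 6 (0.0549 to 0.111), with the hindbrain score (0.118), with scores of 4 regions (0.147), with no filter (0.0513) and without the Gm10800 libraries (0.0506). That of Ly6c1 was lost with scores of 4 regions (0.103) and with the compared groups alone (0.0912). In both cerebellum sets neither was called.
Cholesterol is a main lipid of myelin, and of 19 genes of its synthesis 1 was above 0 with age (median -0.14) and 17 after the one-year KD (median 0.11), with 0 called in either. These 2 comparisons share the 26-month CD brains. Mvd, an enzyme of the mevalonate pathway, had the smallest p with age, at -0.38 (SE 0.12, adjusted p = 0.134), and stood at 0.32 (SE 0.11, adjusted p = 0.989) after the one-year KD. Tm7sf2, a sterol reductase, followed with -0.26 and 0.26. Axonal genes of the node and paranode had a median of -0.05 with age, 6 of 13 above 0, and of 10 Schwann cell myelin genes, markers of peripheral nerve, 6 passed the filter and had a median of -0.05. Meningeal fibroblast markers were lower with age, 10 of 10 below 0 and 7 called, with summed levels of 40.1 to 69.6 CPM in 26-month CD against 94.0 to 190 CPM in 12-month CD brains. The 7 were Fmod, Slc22a6, Ogn, Islr, Slc13a4, Col1a2 and Col1a1, of which Col1a2 lost its call without any of 4 of the 13 libraries (0.0503 to 0.156) and Col1a1 without any of 12 (0.0569 to 0.225). In the low cerebellum set all 7 lost their calls (0.101 to 0.450). In the high set all but Fmod and Slc13a4 did (0.0708 to 0.277). Col1a1 also lost its call with the compared groups alone (0.114). The part of meningeal fibroblasts in the members' result was not tested.

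**Figure D4:**
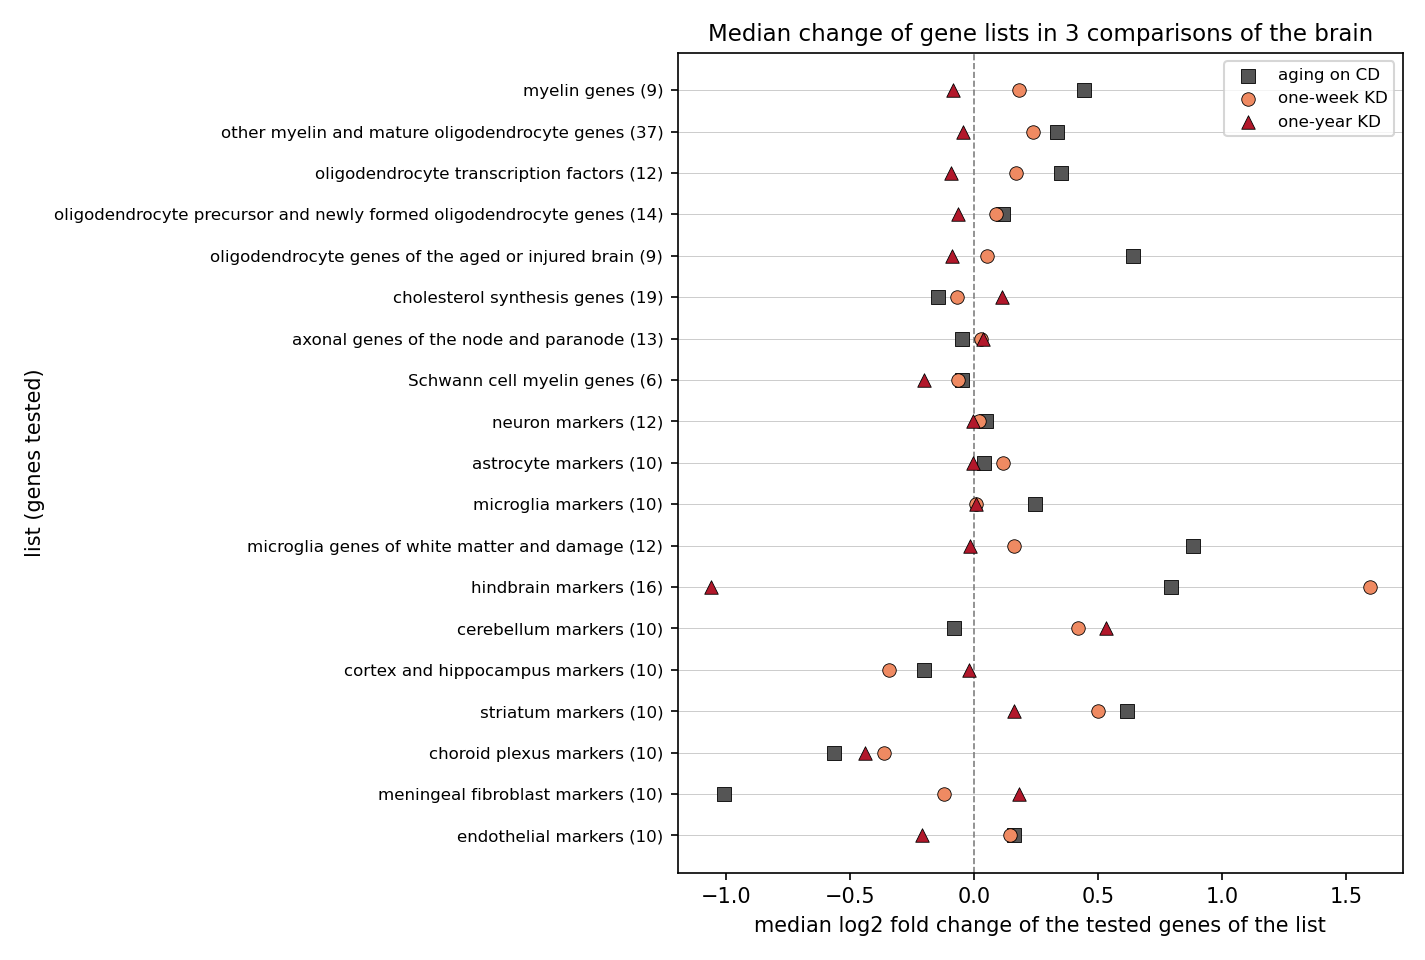
Median log2 fold change of the tested genes of each list (number tested in brackets) in 3 comparisons: squares aging, circles one-week KD, triangles one-year KD. The 9 members stand at 0.44 with age, 0.18 in the one-week and -0.08 in the one-year comparison, and hindbrain markers at 0.79, 1.60 and -1.06.

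Scores, the mean z-value of log2 CPM over a list, summarise each list per library. The score of the 9 members was -0.85 to 1.23 in 26-month KD, -0.15 to 1.5 in 26-month CD, -1.79 to 0.72 in 12-month KD and -2.17 to 0.20 in 12-month CD brains. Over the 28 libraries it ran with the score of the 37 other myelin genes (r = 0.96), of the transcription factors (0.85) and of the genes of the aged or injured brain (0.80), and less with microglia markers (0.67). Against the cerebellum score r was -0.42, and against the hindbrain score 0.28. For the cholesterol list it was 0.27 over all libraries and 0.58 within groups. Other lists also had such values within groups, with 0.60 for neuron markers, 0.57 for microglia markers and 0.50 for the Schwann cell list. For astrocyte markers the within-group r was 0.22.

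**Figure D5:**
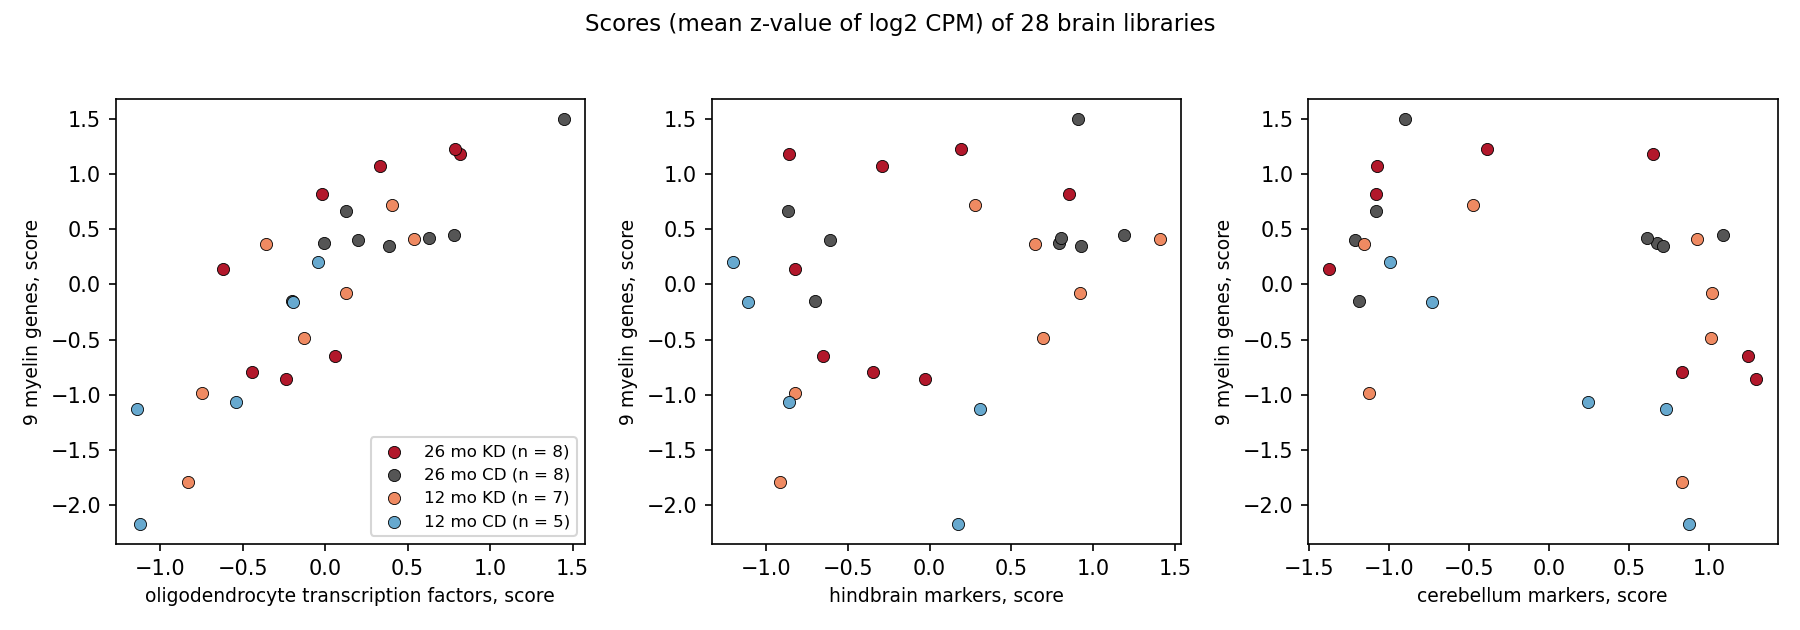
Score of the 9 members (vertical axis) against the scores of 12 oligodendrocyte transcription factors, of hindbrain markers and of cerebellum markers (horizontal axes), 1 point per brain, coloured by group. The cerebellum scores fall into 2 clouds, above and below 0, and each cloud holds libraries of all 4 groups.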

How the data were processed

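RNA of whole brains was depleted of ribosomal RNA and sequenced. Per the labels and the study's methods the authors trimmed reads with Trimmomatic, aligned them to GRCm38 with STAR and counted genes with RSEM (versions not given in the sources used here), and deposited raw counts, whole numbers without normalization. Whether counting used strand is not stated. Of 54446 identifiers, 54409 had a symbol in GENCODE vM21. No library was left out.

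The 28 brains formed one fit in edgeR 4.0.16 (R 4.3.3): filterByExpr, TMM, quasi-likelihood F test, a term for each of the 4 groups, Benjamini-Hochberg adjustment over 22079 genes, calls at an adjusted p under 0.05. Intervals are at 95%. CPM are TMM-scaled. At 7447742 to 12744415 counts per library the members had from 84 (Opalin) to 25764 (Mbp) counts, so that counting error weighs most on Opalin. The chi-square per gene of the 87 within-group pairs was at least 3.17, so none was a duplicate. The code was tested on simulated data.

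Members and lists were chosen with earlier results of these data known. Named are all members, list genes that were called, the 2 with the smallest p, and the 10 most and 5 least like the members, without predicted genes and pseudogenes; St18 falls outside this rule. Alternatives were DESeq2 1.42.0, limma 3.58.1 with sample quality weights, RLE factors, total counts, robust dispersion, no filter on low counts, 10 or more counts demanded of each brain, fits of the compared groups only, the hindbrain score as covariate, a replicate block and each library left out. Added after seeing the data were scores of 4 regions, fits without libraries over 0.5% Gm10800 and the split by cerebellum score. Promoters came from RefSeq. Livers were used only for levels.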

Additional observations from a re-analysis of the deposited data

Results flagged for a closer look

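Of 36 groups (9 members in 4 groups), 3 held a brain far from its neighbours by Dixon's criterion, which flags about 1 in 20 groups by chance. All 3 lie in the 26-month CD group, and 2 of them are the same brain. The members vary together, so the 36 are not separate tests. A count of 3 therefore cannot be read as a trait of this group. Replicate 6 had 75.9 CPM of Mog against 57.8 CPM in the next brain, and 232 CPM of Mal against 181 CPM. The same brain had the highest score of the 9 members (1.5) and of the oligodendrocyte transcription factors (1.45), with a hindbrain score of 0.91 and a cortex and hippocampus score of -1.12; the part of these in its level was not tested. Replicate 3 had 70.5 CPM of Ermn, against 109 CPM in the next brain, and its score of the other myelin genes, at -0.87, was the lowest of its group. It had a hindbrain score of -0.70 and a cerebellum score of -1.19.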

How the results depend on the processing

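For aging, the 0 members called by edgeR became 4 with DESeq2 and 1 with limma, and 0 to 1 with each library left out. All members but Opalin had a log2 fold change above 0 in every alternative run, with medians from 0.21 to 0.62. Opalin turned to -0.248 in libraries with a cerebellum score below 0, and ranged from -0.0535 to 0.207 with each library left out. With the replicate block, which treats equal numbers as pairs, 0 members were called (median 0.43, smallest adjusted p 0.615); the numbers do not pair the samples (r of deviations 0.19, -0.23 and -0.08 for the 3 shared numbers). For the 3 other comparisons 0 members were called in every alternative run.
All genes called higher and lower with age numbered 221 and 57. DESeq2 called 393 and 106, limma 107 lower, no filter 146 higher, a filter of 10 counts in every library 134 higher, the compared groups alone 90 and 31, the hindbrain score 120 higher, 4 region scores 139 higher, the replicate block 15 and 5, libraries above a cerebellum score of 0 called 38 and 16, and those below 14 and 0. Without 12-month CD replicate 1, 4, 7 or 16 edgeR called 128, 108, 109 or 109 higher, and 29 lower without replicate 1.
In the one-year KD the log2 fold change turned above 0 for Mog with limma (0.0453), for Mog (0.0337), Mag (0.0563) and Cnp (0.0116) with the hindbrain score, for Mbp (0.0627), Mog (0.122), Mag (0.132), Cnp (0.0641), Cldn11 (0.00561) and Ermn (0.0215) with 4 region scores, for Mbp (0.0305), Mog (0.0614), Mag (0.118) and Cnp (0.039) without the Gm10800 libraries, and for Mbp (0.0828), Mog (0.0915), Mag (0.148), Cnp (0.0995), Cldn11 (0.00131) and Ermn (0.148) at a cerebellum score below 0. Opalin turned to -0.167 at a score above 0. With each library left out Mog ranged from -0.0648 to 0.0671, Mag from -0.0834 to 0.0487 and Cnp from -0.0786 to 0.010.
In the one-week KD, Mal was -0.0358 with 4 region scores and, at a cerebellum score below 0, Opalin was -0.147, Mal -0.0484, Cldn11 -0.00312 and Cnp -0.000174. With each library left out Opalin ranged from -0.052 to 0.215 and Mal from -0.0669 to 0.107. In the difference between both diet effects, Opalin was -0.0125 with the hindbrain score and -0.478 at a cerebellum score above 0, Mal 0.00434 with 4 region scores, and, at a score below 0, Mag 0.061, Cnp 0.0997, Cldn11 0.00443 and Ermn 0.0602. With each library left out Opalin ranged from -0.0635 to 0.204. The cause of these turns was not tested. Fits on one kind of library hold 2 to 4 brains per group.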
